A study of Mus musculus with 2 samples.

Results

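The genes described here encode 10 proteins of the brain's extracellular matrix, all chosen by symbol: the chondroitin sulfate proteoglycans *Bcan*, *Ncan*, *Vcan*, *Acan*, *Cspg4* and *Cspg5*, the tenascins *Tnr* and *Tnc*, and the hyaluronan link proteins *Hapln1* and *Hapln2*. They are 10 of 32285 features in the files, and each had at least 1 transcript in the cells kept from each library. All were read across tumor, oligodendrocyte, astrocyte and stromal cells of mouse optic nerve. Optic nerves of *Nf1* flox/mut; GFAP-Cre mice on a C57BL/6 background, called Nf1-OPG mice, were pooled from 10 animals of 12 weeks of age, dissociated, and captured as single cells. In these mice the Cre recombinase is driven by a GFAP promoter, active in glial cells and their progenitors, and removes the floxed *Nf1* allele there. The mutant allele is carried by every cell, and cells without Cre keep the floxed allele beside it. There were 2 libraries, C-ON and FMC_new, with the same genotype label, so both belong to 1 group and no library of another genotype was analysed here. The title of C-ON holds the word control and that of FMC_new the words FMC new. What these words refer to is not given in the sources used here, and without a library of intact *Nf1* the targeted gene gives no check of the label.

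Chondroitin sulfate proteoglycans are core proteins that carry long, negatively charged sugar chains. The lecticans among them (aggrecan, brevican, neurocan and versican) hold hyaluronan at their N-terminal end, where link proteins lock the complex, and bind tenascin-R at their C-terminal end. Together these molecules build the loose matrix of the brain, the perineuronal nets around neurons and the coat of the nodes of Ranvier, and several of them are known from oligodendrocyte precursor cells, astrocytes and gliomas.

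Each library holds a count of unique molecular identifiers (UMIs, 1 for each captured transcript) per gene and cell. C-ON held 85101211 UMIs in 10845 barcodes and FMC_new 129113325 UMIs in 21341 barcodes. After the filters of the study, 8834 and 16818 cells were kept, with a median of 6810.5 and 4676 UMIs per cell. The libraries shared 296 barcodes, 188 of them among the kept cells, and 23 of these fell in the same class in both. The level of a gene in a class is its UMIs divided by the total UMIs of that class and scaled to 1000000 (CPM), first for C-ON and then for FMC_new, with exact Poisson 95% intervals that cover counting error only. Counts come from the 5′ ends of transcripts, and levels are compared between cells for 1 gene, never between genes.

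The cells fell into 37 clusters, of which 27 were placed in 16 classes by marker genes that include none of the 10 genes. The 10 genes were also left out of the features used for clustering. The tumor-like class held 214 and 1387 cells, and all 9 of its markers, such as *Pdgfra*, *Lhfpl3* and *Neu4*, were found in 46.3 to 94.9% and 40.7 to 90.9% of them. These markers are also those of oligodendrocyte precursor cells, so tumor cells and normal precursors cannot be told apart here. The oligodendrocyte-like class held 5317 and 2081 cells and all 9 myelin markers in at least 75.2% of them. The astrocyte-like class held 19 and 213 cells and is given for FMC_new only. The 9 astrocyte markers were found in 20.2 to 79.3% of its FMC_new cells and summed to 5011 CPM. All 4 pituicyte markers were found in 17.4 to 28.6% of the same cells, led by *Scn7a*, and summed to 2235 CPM. A separate pituicyte-like cluster was named with FMC_new clustered alone (96 cells) and with looser filters on cells (140 cells). The part of pituicytes in the astrocyte-like values was not tested. The fibroblast-like class, with 105 and 502 cells, stands for the stroma, since no cluster met the rule for endothelial or mural cells. FMC_new also held pituitary cells, and *Gh* (growth hormone) took 2.49% of its UMIs and was found in 99.8% of its tumor-like cells. Since such free RNA is counted in every cell, T cell-like cells, which had a median of 3244 and 3130 UMIs, are used below as the background for the matrix genes other than *Tnc*.

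On GRCm38, each lectican gene lies next to the gene of a link protein. *Bcan* (chr3:87987531-88000230) lies 21519 bases from *Hapln2* (chr3:88021750-88027583) on the same strand. *Vcan* (chr13:89655312-89742509) lies 43659 bases from *Hapln1* (chr13:89539796-89611652) on the opposite strand, *Acan* (chr7:79053483-79115099) lies 2 bases from *Hapln3*, and *Ncan* (chr8:70093085-70120873) lies 2222 bases from *Hapln4*. The others have no such partner: *Cspg4* (chr9:56865033-56899870), *Cspg5* (chr9:110243783-110262576), *Tnr* (chr1:159523769-159931729) and *Tnc* (chr4:63959785-64047015). Promoter sequences of RefSeq (GRCm38.p6) matched 9 of the 10 genes. The 250 bases upstream of the start are shown for 3 genes found mainly in tumor-like cells and for *Hapln2*, the neighbour of *Bcan* found mainly in oligodendrocyte-like cells, 5′ to 3′ on the strand of the gene with CG dinucleotides in capitals.
Bcan: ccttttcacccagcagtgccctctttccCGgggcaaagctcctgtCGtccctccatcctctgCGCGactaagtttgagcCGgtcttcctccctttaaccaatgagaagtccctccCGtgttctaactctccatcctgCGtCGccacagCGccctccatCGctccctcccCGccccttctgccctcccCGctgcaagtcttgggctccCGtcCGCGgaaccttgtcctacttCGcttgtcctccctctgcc
Vcan: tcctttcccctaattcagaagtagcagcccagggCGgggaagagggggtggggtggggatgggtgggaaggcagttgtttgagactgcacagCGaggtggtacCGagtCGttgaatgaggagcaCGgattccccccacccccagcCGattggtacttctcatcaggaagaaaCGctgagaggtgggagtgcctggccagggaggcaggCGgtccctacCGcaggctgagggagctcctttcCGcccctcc
Tnr: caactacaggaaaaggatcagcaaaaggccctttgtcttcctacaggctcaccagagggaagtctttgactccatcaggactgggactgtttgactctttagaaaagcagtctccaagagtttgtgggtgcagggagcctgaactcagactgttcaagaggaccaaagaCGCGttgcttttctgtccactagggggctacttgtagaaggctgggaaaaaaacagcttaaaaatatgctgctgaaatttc
Hapln2: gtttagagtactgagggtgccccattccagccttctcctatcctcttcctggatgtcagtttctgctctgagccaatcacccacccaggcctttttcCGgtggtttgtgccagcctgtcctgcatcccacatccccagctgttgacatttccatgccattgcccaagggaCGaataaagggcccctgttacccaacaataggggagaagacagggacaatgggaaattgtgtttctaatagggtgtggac
The first comes from chr3:88000357-88000606 (minus strand), the next from chr13:89742513-89742762 (minus strand), the third from chr1:159523519-159523768 (plus strand) and the last from chr3:88027512-88027761 (minus strand). *Bcan* has 16 CG dinucleotides, *Vcan* 10, *Tnr* 2 and *Hapln2* 2, while the median of 32851 promoter windows was 6 (quartiles 2 and 16). Genes high in the same cells thus had windows rich and poor in CG, and *Tnr* had as few as *Hapln2*. Of 5 motifs searched on both strands, CAGCTG was found upstream of *Ncan*, *Acan* and *Hapln2* (13% of all windows), ACAAAG upstream of *Tnr* (16.5%), ACAATG upstream of *Hapln2* (10.7%) and TATAAA upstream of *Ncan* and *Tnc* (12.4%). CATCTG was found upstream of none of the 9 genes (14.4% of all windows).

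Among the 10 genes, 6 (*Ncan*, *Vcan*, *Acan*, *Cspg4*, *Cspg5* and *Tnr*) had their highest mean level in tumor-like cells. The share of all genes highest in that class is not given, so this count is not set against a background. The rank of *Acan* rests on 26 UMIs in tumor-like cells, at a level within the spread of fibroblast-like cells. *Bcan* was as high in astrocyte-like as in tumor-like cells, *Hapln2* was highest in oligodendrocyte-like cells, and *Hapln1* and *Tnc* were rare in every class. A gene was called where the fold passed 4 in each library among genes with at least 10 UMIs in the classes compared. Between tumor-like and oligodendrocyte-like cells, 7 of the 10 genes could be tested in this way. Of these, 6 were higher in tumor-like cells, against 19.2% of 15077 genes called higher, and 1 (*Hapln2*) was lower, against 2.47%. The median log2 fold was 7.48 for the 7 genes and 0.48 for all genes tested. With 2 libraries of 1 group, and classes that come from clusters of the same cells, there is no test of these differences and no p-value is given.

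**Figure D1:**
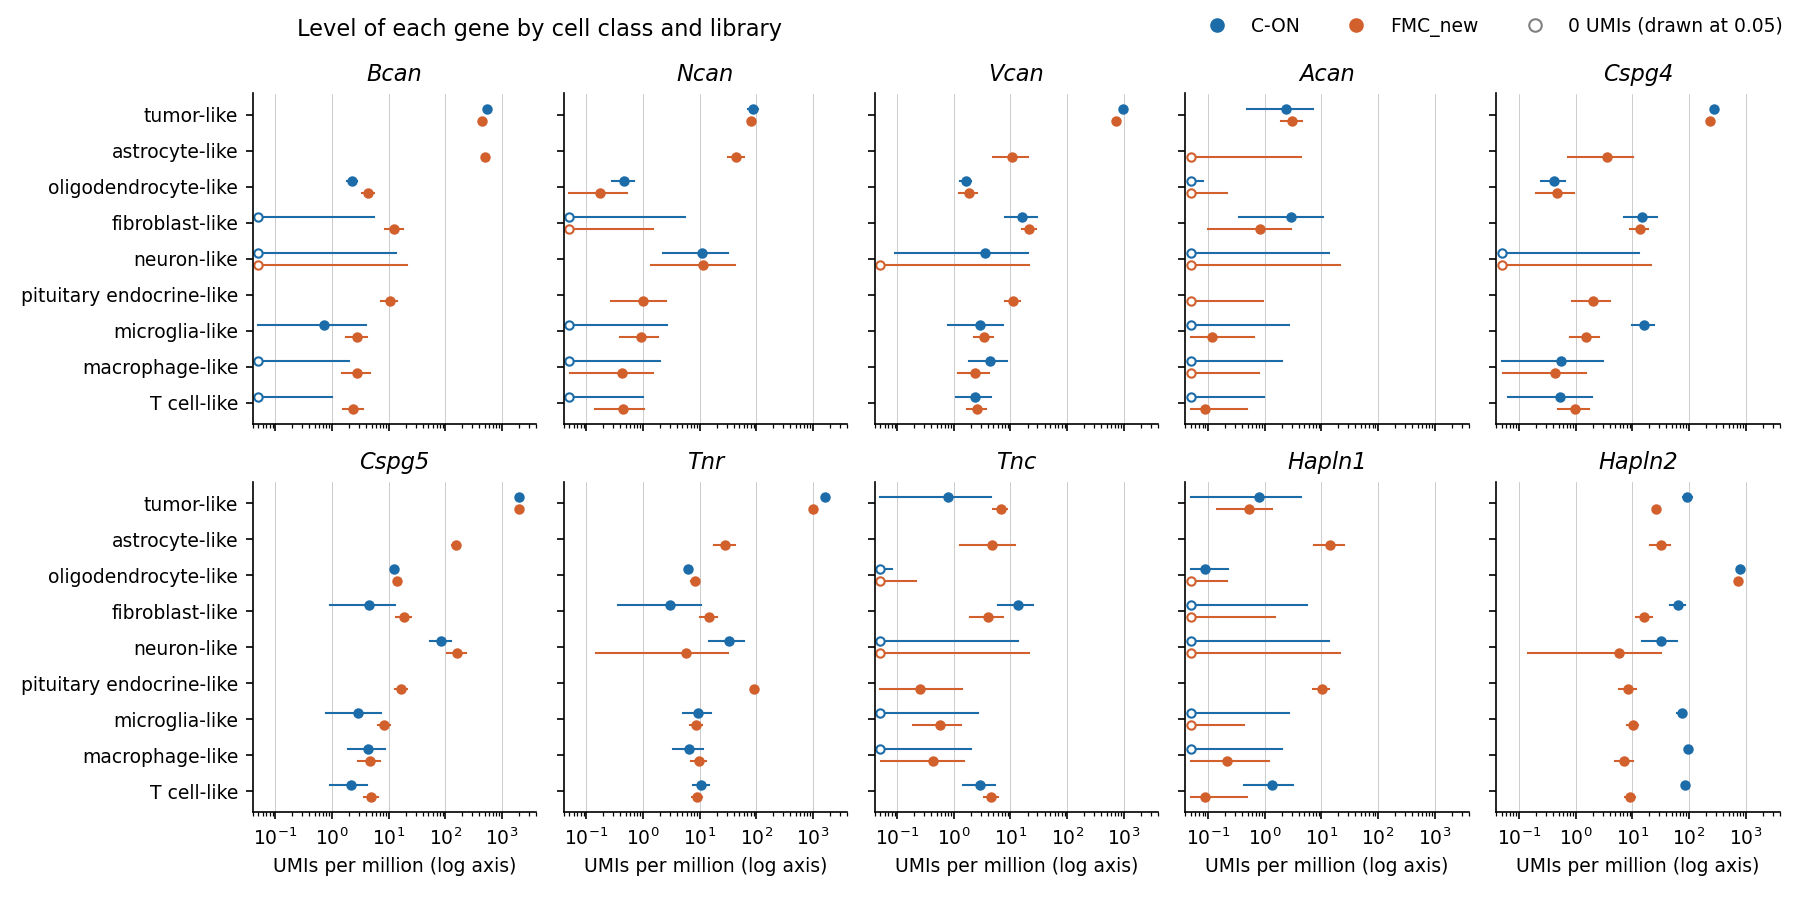
Levels of the 10 genes (CPM, log axis) by cell class, with a point for each library and bars for exact Poisson 95% intervals. *Bcan*, *Vcan*, *Cspg4*, *Cspg5* and *Tnr* sit above 200 CPM in tumor-like cells of both libraries, and *Hapln2* sits above 700 CPM in oligodendrocyte-like cells only.

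Brevican (*Bcan*), the lectican most typical of adult brain matrix, was at 541 CPM (95% interval 501 to 584) in C-ON and 452 CPM (437 to 467) in FMC_new in the tumor-like class, a mean of 497 ± 63.5 (SD, n = 2 libraries). In oligodendrocyte-like cells it was at 2.27 and 4.35 CPM, which made it 239-fold (194 to 297) and 104-fold (82.5 to 133) higher in tumor-like cells. In the T cell-like background it was at 0 and 2.38 CPM. Tumor-like cells were therefore far above both classes in each library. The oligodendrocyte-like level was above the background by 2.82-fold in C-ON, taken against a floor of 3 UMIs, and by 1.83-fold (1.16 to 2.95) in FMC_new. With looser filters on cells, the mean log2 fold of tumor-like over oligodendrocyte-like cells was 5.72 in place of 7.30. Astrocyte-like cells of FMC_new held 504 CPM (457 to 554), and the tumor-like level there was 0.897 times this (0.811 to 0.994). At 1000 UMIs per cell, *Bcan* was found in 34.8 and 31.1% of tumor-like cells, in 36.0% of astrocyte-like cells and in 0 and 0.160% of T cell-like cells. The order was astrocyte-like, then tumor-like, then pituitary endocrine-like (10.4 CPM) and fibroblast-like cells (6.31 ± 8.92 CPM), and the leading pair did not differ beyond the spread of the libraries.

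Neurocan (*Ncan*), a lectican known from developing and injured brain, was at 87.8 CPM (72.2 to 106) and 80.2 CPM (74.0 to 86.8) in tumor-like cells, a mean of 84.0 ± 5.41 (SD, n = 2). Oligodendrocyte-like cells held 21 and 3 UMIs of it in all, or 0.457 and 0.176 CPM. It was thus 192-fold (119.7 to 323) and 455-fold higher in tumor-like cells, where the second value rests on 3 UMIs (interval 155 to 2211). The mean log2 fold of 8.21 was 6.69 on counts thinned to 1000 UMIs per cell and 7.38 with each library clustered alone. Astrocyte-like cells came next at 44.6 CPM (31.6 to 61.2), and the tumor-like level of FMC_new was 1.80-fold (1.30 to 2.57) above them. Neuron-like cells followed at 11.2 ± 0.480 CPM on 5 UMIs. That class met the rule on 3 of its 7 markers and was led by *Avp*, *Nms* and *Prokr2*. *Stmn2* was found in 100% of its cells, and *Nefl*, *Nefm* and *Slc17a6* in 0%, in both libraries. *Ncan* was found in 9.05 and 7.61% of tumor-like cells at 1000 UMIs and in no T cell-like cell at that depth, among 943 and 3131 cells.

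Versican (*Vcan*), the lectican with the longest chain-bearing region and a known product of oligodendrocyte precursors, was at 961 CPM (907 to 1017) and 719 CPM (700.3 to 738) in tumor-like cells, a mean of 839.9 ± 171 (SD, n = 2). No other named class held more than 26.9 CPM, the neutrophil-like value, which came from 16 UMIs with 10 of them in 1 cell. Fibroblast-like cells were next at 16.3 and 21.2 CPM. The tumor-like level was 588-fold (465 to 753) and 395-fold (278 to 581) above oligodendrocyte-like cells, and 58.9-fold (32.8 to 118) and 34.0-fold (25.9 to 45.6) above fibroblast-like cells. Against astrocyte-like cells, at 10.6 CPM on 9 UMIs, it was 68.1-fold higher (35.8 to 149). *Vcan* therefore parted tumor-like from astrocyte-like cells, which *Bcan* did not. The antisense gene Gm4117 overlaps *Vcan* and was at 12.0 and 8.13 CPM in tumor-like cells.

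Aggrecan (*Acan*), the lectican of cartilage and perineuronal nets, was nearly absent, with 6 and 38 UMIs in all barcodes. Tumor-like cells held 3 and 23 of these, in 3 and 20 cells, which gives 2.40 CPM (0.494 to 7.00) and 3.01 CPM (1.91 to 4.52). Oligodendrocyte-like cells held 0 UMIs in each library, where a count of 0 allows up to 0.0653 and 0.176 CPM. In FMC_new tumor-like cells were 17.1-fold higher, taken against a floor of 3 UMIs per library and class (0.176 CPM). In C-ON no fold is given because 3 UMIs are at this floor. The level was within the spread of fibroblast-like cells, at 1.89 ± 1.52 CPM on 4 UMIs.

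Both transmembrane proteoglycans set tumor-like cells apart from every other named class. *Cspg4* encodes NG2, the classic surface marker of oligodendrocyte precursors that is also found on pericytes. It was at 273 CPM (245 to 304) and 238 CPM (227 to 249) in tumor-like cells, a mean of 256 ± 24.7 (SD, n = 2). Oligodendrocyte-like cells held 19 and 8 UMIs, T cell-like cells 2 and 11, and the fold over oligodendrocyte-like cells was 659.9 (416 to 1109.7) and 507 (257 to 1175). Its mean log2 fold was 9.18, and 8.11 on thinned counts. Fibroblast-like cells came next in the mean, at 14.1 CPM, which lay within the spread of microglia-like cells (8.77 ± 10.3 CPM on 35 UMIs). Fibroblast-like cells held 14.8 and 13.4 CPM, 18.4-fold (9.90 to 38.8) and 17.7-fold (12.6 to 25.9) below tumor-like cells. Of the 7 mural markers, 1 was found in over 20% of fibroblast-like cells of C-ON (*Tagln*, 21.9%) and none in FMC_new (highest 7.57%), and the part of such cells in this value was not tested. In tumor-like cells 5 and 1 of the mural markers were at 0 and the highest was found in 0.467 and 0.505% of cells.

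*Cspg5* encodes neuroglycan C, a brain proteoglycan with an EGF-like domain, and was at 1975 CPM (1898 to 2054) and 2024 CPM (1992 to 2056) in tumor-like cells. Its mean of 1999 ± 34.4 (SD, n = 2) had the smallest spread between libraries, relative to its level, among the 6 genes called higher. At 1000 UMIs per cell it was found in 74.3 and 69.4% of tumor-like cells and in 0.212 and 0.351% of T cell-like cells. Oligodendrocyte-like cells held 12.7 and 14.2 CPM, 156-fold (142 to 170.5) and 142-fold (125 to 162) below tumor-like cells, yet 5.93-fold (2.99 to 13.8) and 2.88-fold (2.15 to 3.93) above the T cell-like background. Astrocyte-like cells held 156 CPM (131 to 185), 12.96-fold (10.9 to 15.5) below the tumor-like cells of FMC_new. Neuron-like cells held 83.5 CPM (52.9 to 125) and 162 CPM (108 to 234) in 35 and 20 cells, and did not differ from astrocyte-like cells beyond their spread.

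Tenascin-R (*Tnr*), the partner of lecticans in the adult nervous system, was at 1640.3 CPM (1570.1 to 1713) and 1025 CPM (1002 to 1048) in tumor-like cells, a mean of 1332 ± 435 (SD, n = 2). The libraries thus differed beyond counting error, C-ON being the higher. The most in 1 cell was 154 and 124 UMIs, and *Tnr* was found in 92.1 and 82.1% of tumor-like cells. Oligodendrocyte-like cells held 6.27 and 8.41 CPM, 261-fold (231 to 297) and 122-fold (103 to 145) less, and T cell-like cells 10.7 and 9.17 CPM. The oligodendrocyte-like level was therefore at or below the background (0.586-fold, 0.420 to 0.838, and 0.917-fold, 0.707 to 1.19). Oligodendrocyte-like cells were deeper, with medians of 8069 and 7818 UMIs against 3244 and 3130 in T cell-like cells. A ratio of CPM thus cannot decide whether they express *Tnr* at a low level. Astrocyte-like cells, at 28.2 CPM (18.1 to 41.9), were 36.4-fold (24.4 to 56.8) below tumor-like cells. The gene Gm10530 overlaps *Tnr* on the same strand and was at 4.79 and 5.11 CPM in tumor-like cells.

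Pituitary cells of FMC_new were the only other cells with much *Tnr*. The pituitary endocrine-like class, led by *Ghrhr*, *Pou1f1* and *Gh*, held 90.1 CPM (80.9 to 99.9), in 44.4% of 354 cells. An unnamed cluster of 601 cells led by *Tbx19*, *Avpr1b* and *Crhr1*, genes of corticotrophs, held 149.6 CPM (139.6 to 160.1), in 60.9% of cells. At 1000 UMIs per cell, *Tnr* was found in 8.47% of the former and 14.6% of the latter, against 1.12% of T cell-like cells and 50.5% of tumor-like cells of the same library. Pituitary cells were thus above the background and far below tumor-like cells.

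Tenascin-C (*Tnc*), a glycoprotein of developing tissue and gliomas, was rare in tumor-like cells, with 1 UMI in C-ON and 51 in FMC_new. Of the latter, 26 were in 1 cell and all were in 12 of 1387 cells, so that its 6.68 CPM (4.98 to 8.79) rested on few cells. Oligodendrocyte-like cells held 0 UMIs in both libraries, below 0.0653 and 0.176 CPM. The most was found in an unnamed cluster of 286 cells of FMC_new led by *Folr1*, *Mia* and *Cyp2f2*, at 34.8 CPM (26.2 to 45.2) on 55 UMIs in 14.7% of its cells. Fibroblast-like cells held 9 and 10 UMIs, 8 of the former in 1 cell.

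T cell-like cells held 11 and 51 UMIs of *Tnc*, or 2.94 CPM (1.47 to 5.27) and 4.50 CPM (3.35 to 5.91). This was 45.0-fold and 25.5-fold above the floor of 3 UMIs for oligodendrocyte-like cells, so the T cell-like value of *Tnc* is not a common background. T cell-like cells without *Foxp3* were split by *Cd8a*, and those with *Cd8a* by *Pdcd1*, the gene of the checkpoint receptor PD-1. Among cells with *Cd8a*, those with *Pdcd1* held 7 UMIs in 256 cells and 17 UMIs in 917 cells. Those without *Pdcd1* held 0 UMIs in 194 and in 508 cells, which allows at most 1.55 and 0.591% of cells with a UMI, against 2.34% (0.865 to 5.03) and 1.74% (1.00 to 2.82) with *Pdcd1*. The intervals of the share overlapped the limit in C-ON and not in FMC_new. Cells with neither *Cd8a* nor *Foxp3* held 3 UMIs in 444 cells of C-ON and 33 UMIs in 1429 cells of FMC_new. Their level was 2.14 CPM (0.442 to 6.26) and 7.77 CPM (5.35 to 10.9). Cells with *Cd8a* and *Pdcd1* were at 5.66 CPM (2.27 to 11.7) and 4.27 CPM (2.49 to 6.83). *Tnc* of T cell-like cells was thus not limited to those with *Cd8a*. The split by *Pdcd1* was chosen after the values of T cell-like cells were seen, and cells with a UMI of *Pdcd1* are deeper, with a median of 4107.5 and 3757 UMIs against 3411 and 3426. On thinned counts of C-ON, *Tnc* was found in 0 of 255 cells with *Pdcd1* and 0 of 193 without. For FMC_new the thinned shares were 0.328% (0.0677 to 0.955) with *Pdcd1* and 0% (0 to 0.726) without, with overlapping intervals.

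*Hapln1* encodes the link protein that stabilises aggrecan and versican on hyaluronan, and was close to absent where *Vcan* was high. Tumor-like cells held 1 and 4 UMIs of it, oligodendrocyte-like cells 4 and 0. Astrocyte-like cells had the highest level at 14.1 CPM (7.28 to 24.6), on 12 UMIs in 10 cells, 26.9-fold (8.14 to 114) above tumor-like cells of FMC_new. Pituitary endocrine-like cells came next at 10.1 CPM (7.25 to 13.8), on 40 UMIs in 24 cells, and the intervals of the pair overlap.

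*Hapln2* encodes the link protein Bral1 of the nodes of Ranvier and showed the reverse of its neighbour *Bcan*. It was at 805 CPM (797 to 813) and 741 CPM (728 to 754) in oligodendrocyte-like cells, a mean of 773 ± 45.5 (SD, n = 2), and in 95.7 and 92.7% of them. Tumor-like cells held 94.2 CPM (78.0 to 113) and 26.3 CPM (22.8 to 30.2), 8.54-fold (7.13 to 10.3) and 28.1-fold (24.5 to 32.5) lower. The mean log2 fold was -3.95, and -3.19 with looser filters or -4.68 without the smaller tumor-like cluster. T cell-like cells held 86.1 CPM (77.0 to 96.1) and 9.08 CPM (7.41 to 11.0). In C-ON the tumor-like level was therefore not distinguishable from the background, and in FMC_new it was above it. Beside this, the 9 oligodendrocyte markers summed to 10899 and 6420 CPM in tumor-like cells, against 67831 and 60712 CPM in oligodendrocyte-like cells, and 8 and 4 of the 9 were found in at least 20% of tumor-like cells. The part of oligodendrocyte RNA in the tumor-like value was not tested. Every other named class with *Hapln2* was at 142 CPM or below in the mean.

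**Figure D2:**
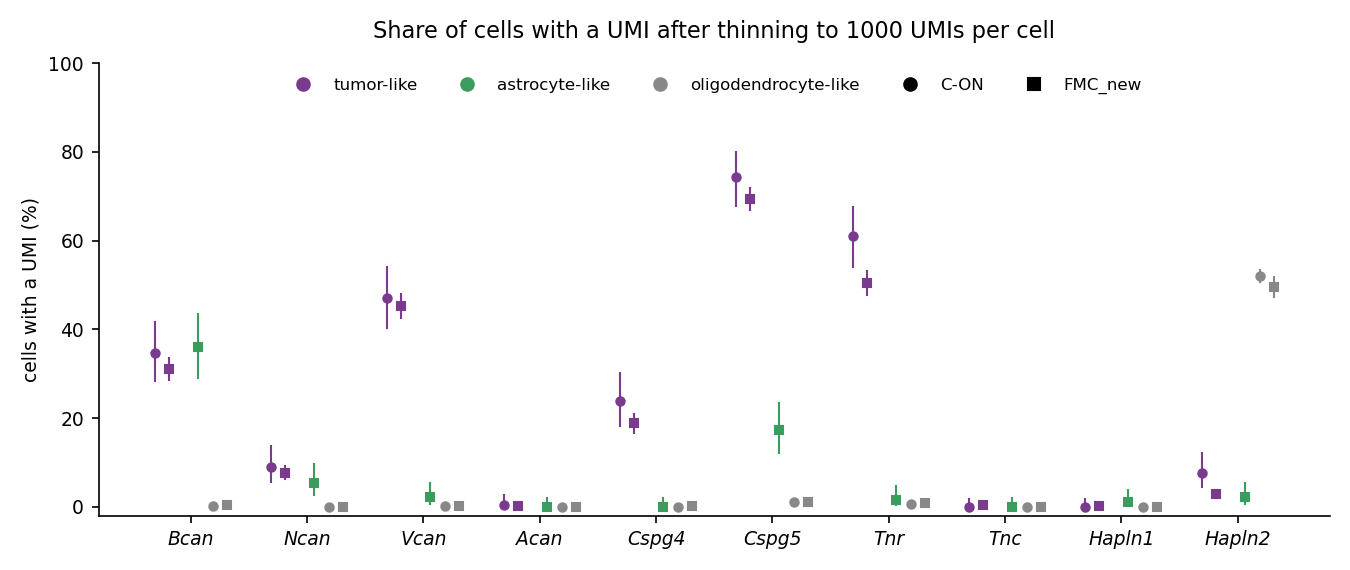
Share of cells (%) with at least 1 UMI of each gene after every cell was thinned to 1000 UMIs, by class and library, with exact Clopper-Pearson 95% intervals. *Cspg5*, *Tnr* and *Vcan* were found in 45.2 to 74.3% of tumor-like cells, and *Hapln2* in 52.1 and 49.5% of oligodendrocyte-like cells.

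Tumor-like cells combined these genes within single cells. At 1000 UMIs, 96.7 and 90.3% of them had at least 1 of the 10 genes, 79.5 and 69.9% at least 2, and 55.2 and 43.4% at least 3. Oligodendrocyte-like cells had at least 1 in 53.2 and 51.0%, at least 2 in 0.886 and 1.32%, and at least 3 in 0% of cells. Astrocyte-like cells had at least 1 in 48.9%, at least 2 in 16.1% and at least 3 in 0.538%. At full depth the median was 5 of the 10 genes in tumor-like cells, 1 in oligodendrocyte-like cells and 1 in astrocyte-like cells. Of all UMIs in kept cells, tumor-like cells, which were 2.42 and 8.25% of cells, held 77.6 to 88.8% in C-ON and 78.2 to 92.4% in FMC_new of *Bcan*, *Ncan*, *Vcan*, *Cspg4*, *Cspg5* and *Tnr*.

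Other pairs of classes were read in the same way. Over astrocyte-like cells of FMC_new, where all 10 could be tested, 4 were higher in tumor-like cells (*Vcan*, *Cspg4*, *Cspg5*, *Tnr*), against 3.84% of 15666 genes, and 1 (*Hapln1*) was lower, against 8.05%. Over fibroblast-like cells, 6 of 8 tested were higher in both libraries, against 7.86% of 12224 genes, and 0 lower, against 5.43%. Astrocyte-like over oligodendrocyte-like cells gave 6 of 8 higher (*Bcan*, *Ncan*, *Vcan*, *Cspg4*, *Cspg5*, *Hapln1*), against 26.0% of 14840 genes, and 1 (*Hapln2*) lower, against 4.14%. The values of *Vcan* and *Cspg4* there rest on 9 and 3 UMIs in astrocyte-like cells. Oligodendrocyte-like over T cell-like cells gave 1 of 7 higher (*Hapln2*), against 11.6%, and 1 (*Tnc*) lower, against 14.7% of 15055 genes, shares near the background. These comparisons share classes, and each is given by its own values.

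**Figure D3:**
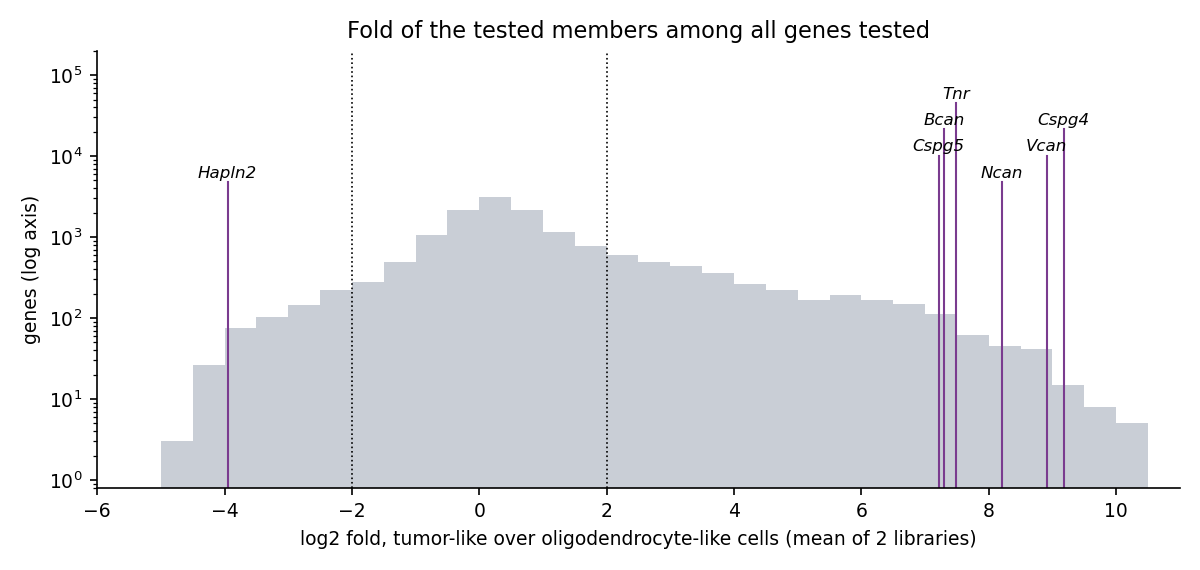
Number of genes by log2 fold of tumor-like over oligodendrocyte-like cells, mean of the libraries, for the 15077 genes tested, with the 7 tested members marked. *Bcan*, *Ncan*, *Vcan*, *Cspg4*, *Cspg5* and *Tnr* lie between 7.22 and 9.18, and *Hapln2* lies at -3.95.

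Within the tumor-like class the genes were uneven. Its larger cluster (cluster 8, 186 and 880 cells) was led by *C1ql1*, *Pdgfra*, *Cspg5* and *Neu4*, and its smaller one (cluster 17, 28 and 507 cells) by *Gpr17*, *Neu4*, *Tmem108* and *Tnr*, with immunoglobulin genes also among the leading 10. *Gpr17* itself was lower in the smaller cluster, at 67.8 and 125 CPM against 226 and 244 CPM, and was found in 35.7 and 21.5% of its cells against 50.5 and 51.7%. All 6 genes called higher were lower in the smaller cluster in each library. *Vcan* was at 1095 and 875 CPM in the larger and 219 and 266 CPM in the smaller cluster. *Cspg5* was at 2219.6 and 2506 CPM against 621 and 621 CPM. *Ncan* was at 98.1 and 99.8 CPM against 31.3 and 23.1 CPM. The gap was smaller for *Bcan*, at 576 and 502 CPM against 349.6 and 305 CPM. *Tnr* was at 1845 and 1155 CPM against 506 and 644 CPM, a gap as wide as that of *Cspg5* in C-ON and smaller in FMC_new. *Hapln2* went the other way, at 82.0 and 11.1 CPM against 162 and 70.7 CPM. The smaller cluster of FMC_new also had a median of 2221 UMIs against 6233.5 and 13459.7 CPM of *Gh* against 3637, and the part of such free RNA in these levels was not tested. With the smaller cluster left out, the same 6 genes were called higher over oligodendrocyte-like cells.

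The receptor gene *Gpr17* marks precursors committed to becoming oligodendrocytes. Tumor-like cells were split by their UMIs of it, a split made after its values were seen, into those with 0 (110 and 823 cells), 1 (52 and 256 cells) and 2 or more (52 and 308 cells). *Bcan* was at 405 and 309.5 CPM with 0 UMIs of *Gpr17*, at 589 and 522 CPM with 1 and at 744 CPM (657 to 840.4) and 664 CPM (630.5 to 699) with 2 or more. Its share at 1000 UMIs followed the same order, with 25.2 and 23.5%, then 39.2 and 36.4%, then 50.0 and 45.3%. *Vcan* was ordered alike, at 835 and 555 CPM, then 913 and 797 CPM, then 1221 and 967 CPM. *Cspg5* was not: it was highest with 1 UMI, at 2761 and 2531 CPM, against 1604 and 1850 CPM with 0 and 1994 and 2013 CPM with 2 or more. *Tnr* was at 789, 936 and 1509 CPM in FMC_new, but at 1783, 1234 and 1717 CPM in C-ON, so the libraries did not share an order. *Ncan* was at 75.9 CPM (67.6 to 84.9), 102 CPM (85.9 to 119.9) and 74.2 CPM (63.3 to 86.4) in FMC_new, highest with 1 UMI, whereas in C-ON it ran from 79.9 to 91.7 CPM with overlapping intervals. *Cspg4* was lowest with 0 UMIs in both libraries. It was at 218 CPM (183 to 259), 346 CPM (281 to 421) and 311 CPM (255 to 375) in C-ON. In FMC_new it was at 210 CPM (196 to 224), 271 CPM (244 to 299) and 269 CPM (248 to 292). Cells with more *Gpr17* were also deeper, with medians of 4879, 5248 and 6536 UMIs in C-ON and 4167, 5554 and 6622 UMIs in FMC_new. The share of cells with *Vcan* at 1000 UMIs kept the order, at 42.1, 45.1 and 59.6% for C-ON and, for FMC_new, at 38.0, 53.2 and 56.4%.

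The split was repeated within the larger tumor-like cluster, where the median depth was 4879, 4836 and 6678 UMIs in C-ON and, in FMC_new, 6110, 5900 and 6617 UMIs. There *Bcan* was at 464 CPM (407 to 528), 686 CPM (583 to 802) and 669 CPM (584 to 763) in C-ON with 0, 1 and 2 or more UMIs of *Gpr17*, in 92, 45 and 49 cells. In FMC_new it was at 399 CPM (376 to 424), 546 CPM (505 to 589.6) and 622 CPM (587 to 659.6), in 425, 192 and 263 cells. Cells with 0 UMIs of *Gpr17* were the lowest in *Bcan* in both libraries, while the intervals of those with 1 and with 2 or more overlapped in both. *Cspg4* was there at 236, 397 and 328 CPM in C-ON. In FMC_new it was at 280 CPM (260 to 301), 288 CPM (258 to 320) and 307 CPM (282 to 333), with overlapping intervals. *Vcan* was there at 981, 1066 and 1286 CPM in C-ON, where the intervals with 0 and with 1 UMI overlapped. Its values in FMC_new were 726, 887 and 1082 CPM, although its shares at 1000 UMIs, at 49.6, 62.5 and 61.2%, did not keep this order, and *Cspg5* was again highest with 1 UMI, at 3210 and 2820 CPM. *Tnr* was at 1018 CPM (980 to 1057), 991 CPM (936 to 1049) and 1461 CPM (1406 to 1518) in FMC_new. Its intervals with 0 and with 1 UMI overlapped there. In C-ON it was highest with 0 UMIs, at 2118, 1445 and 1711 CPM.

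**Figure D4:**
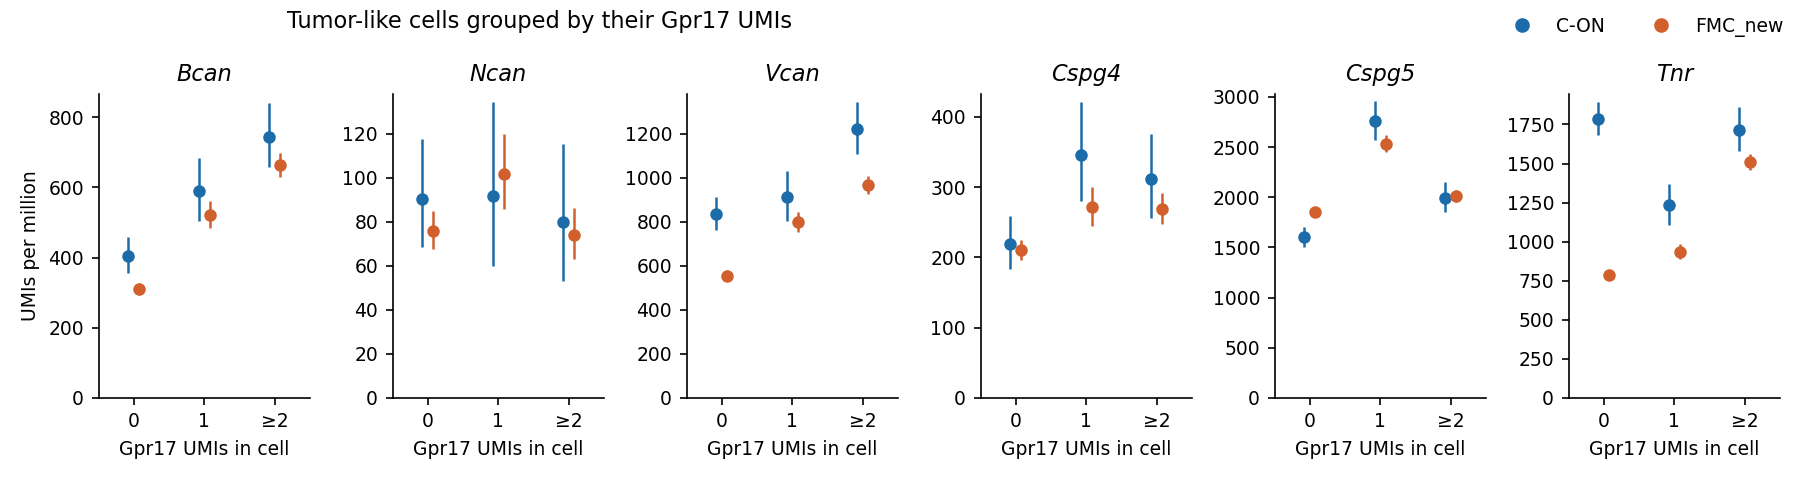
Levels (CPM) of *Bcan*, *Vcan*, *Cspg4*, *Cspg5*, *Tnr* and *Ncan* in tumor-like cells with 0, 1 and 2 or more UMIs of *Gpr17*, by library, with exact Poisson 95% intervals. *Bcan* goes from 405 and 309.5 CPM to 744 and 664 CPM, and *Ncan* lies between 74.2 and 102 CPM, highest with 1 UMI in FMC_new.

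Oligodendrocyte-like cells were uneven in *Hapln2*. It was highest in the cluster led by *Nkx2-9* (cluster 1), at 984 CPM (970.0 to 999) and 1036 CPM (1006 to 1066). The cluster led by *Ptgds* and *Opalin* (cluster 0) held 725 and 686 CPM, and the one led by *C4b*, *Serpina3n* and *Klk6* (cluster 2), genes known from reactive oligodendrocytes, 678 and 627 CPM. The lowest was the cluster led by *Grm3* and *Spock1* (cluster 11), at 613 CPM (594 to 633) and 598 CPM (563 to 635). The order was the same in both libraries, although the intervals of the latter pair overlap in FMC_new, and at 1000 UMIs the shares ran from 41.4 and 41.8% in the lowest to 62.3 and 60.5% in the highest cluster.

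**Figure D5:**
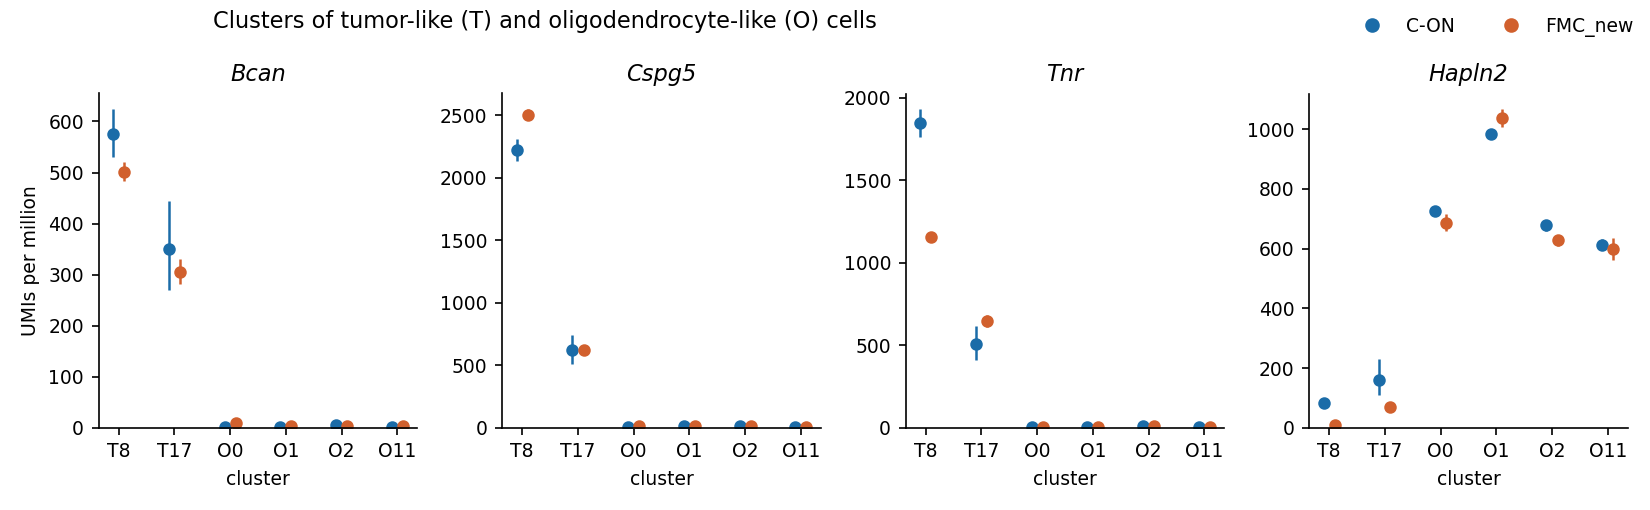
Levels (CPM) of *Bcan*, *Cspg5*, *Tnr* and *Hapln2* in the clusters of tumor-like cells (T8 and T17) and oligodendrocyte-like cells (O0, O1, O2 and O11), by library, with exact Poisson 95% intervals. *Bcan*, *Cspg5* and *Tnr* are highest in T8 and *Hapln2* is highest in O1, at 984 and 1036 CPM.

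Other cells held these genes at low levels. The cluster led by cell cycle genes, left unnamed, held 44.4 CPM (27.8 to 67.2) and 170.4 CPM (155 to 187) of *Cspg5*, in 6.67 and 14.4% of its cells. In FMC_new an unnamed cluster led by *Oacyl*, *Pax7* and *Drd2* held 71.9 CPM (59.9 to 85.5) of *Vcan*, in 17.1% of 228 cells. Of the kept UMIs of *Tnc* in FMC_new, 34.0% were in unnamed clusters, and of those of *Tnr* 12.7%.

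The link protein genes beside the other lecticans were at low levels too. *Hapln3*, next to *Acan*, was at 11.2 and 10.6 CPM in tumor-like cells, on 14 and 81 UMIs, and at 0 UMIs in oligodendrocyte-like cells of both libraries. *Hapln4*, next to *Ncan*, was at 3.19 and 1.70 CPM in tumor-like cells, on 4 and 13 UMIs. *Nes*, the neighbour of *Bcan* on its other side, which encodes the progenitor filament nestin, was at 10.4 and 10.9 CPM in tumor-like and 0.196 and 0.353 CPM in oligodendrocyte-like cells.

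The enzymes and partners of these proteins were read from 7 lists with 76 genes in the files, between tumor-like and oligodendrocyte-like cells. The counts of each list are read against 19.2% of all genes called higher in tumor-like cells and 2.47% called lower. In the list of other proteoglycan core proteins, which also holds the cell adhesion gene *Nrcam*, 8 of 13 tested were higher, *Nrcam* among them, and 2 lower. The receptor-type phosphatase *Ptprz1*, itself a chondroitin sulfate proteoglycan, was 875-fold and 445-fold higher, *Sdc3* 286-fold and 179-fold and *Gpc5* 131-fold and 122-fold. Of all named classes, *Gpc5* and *Nrcam* were highest in astrocyte-like cells of FMC_new, at 1061 and 362 CPM. Those lower were the testicans *Spock1* (8.65-fold and 23.7-fold) and *Spock3* (9.68-fold and 30.3-fold), which had their highest mean in oligodendrocyte-like cells, as *Hapln2* did.

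Chondroitin sulfate synthesis genes were higher in 5 of 14 and lower in 0. They included *Xylt1*, which starts the sugar chain (75.7-fold and 56.4-fold), and *Csgalnact1*, which commits it to chondroitin (76.7-fold and 56.9-fold). *Csgalnact1* was highest in astrocyte-like cells of FMC_new, at 136 CPM. Of 7 chondroitin sulfotransferases tested, 4 were higher, with *Chst11* at 351-fold and 132-fold and *Ust* at 43.1-fold and 13.2-fold, and 0 lower. Of 4 hyaluronan genes, 1 was higher, a share near that of all genes. It was the synthase *Has2*, with a mean of 8.86 ± 2.15 CPM in tumor-like cells (SD, n = 2). The 12 receptors and partners tested held 4 that were higher, including the tenascin-R ligand contactin-1 (*Cntn1*, 315-fold and 86.9-fold), the tenascin-C receptor subunit *Itga9* (125-fold and 94.0-fold) and the chondroitin sulfate receptor *Ptprs* (11.3-fold and 6.91-fold). *Ptprs* had its highest mean in neuron-like cells, at 141 CPM. In the list of matrix proteases, which also holds the metalloproteinase inhibitor *Timp3*, 8 of 10 tested were higher, *Timp3* among them and *Mmp16* by 48.9-fold and 42.2-fold, and 1 lower, the lectican-cleaving *Adamts4* (6.64-fold and 8.50-fold), which had its highest mean in oligodendrocyte-like cells, at 141 ± 11.2 CPM (SD, n = 2). The 1 link protein of the list that could be tested was *Hapln3*. Over astrocyte-like cells of FMC_new, 3.84% of genes were called higher and 8.05% lower. There 1 of 14 core proteins was higher and 1 lower, and 2 of 14 synthesis genes higher and 0 lower. Sulfotransferases gave 3 of 7 higher and 0 lower, and hyaluronan genes 0 of 4 either way. Receptors and partners gave 2 of 12 higher and 3 lower, the protease list 5 of 10 and 2. Of 3 link proteins and tenascins, 0 were higher and 1 lower. *Timp3* was highest in astrocyte-like cells.

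Genes with the most similar pattern were sought over 28 sums of a class in a library, as Pearson's r of log2(CPM + 1) among 17404 genes. The points share libraries and free RNA, and r is a description with no p. *Bcan* was most like *Arhgef19* (r = 0.968), *Gpr37l1* (0.953) and *Pou3f2* (0.951), and *Ncan* most like *Neto1* (0.968), *Gabrg1* (0.955) and *Lgr5* (0.954). *Vcan* was most like *Chst5* (0.886) and *C1ql1* (0.874), *Cspg4* like *Pth1r* (0.932), *Cspg5* like *Mtss2* (0.951) and *Tnr* like 6330576A10Rik (0.926) and *Lypd1* (0.925). *Hapln2* was most like the myelin gene *Mog* (0.986). Among the 10 genes the closest pair was *Ncan* and *Cspg5* (0.921), and *Bcan* and its neighbour *Hapln2* had r = -0.05. *Acan*, *Tnc* and *Hapln1*, on few UMIs, are not described in this way.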

How the data were processed

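Single-cell RNA sequencing of optic nerve from Nf1-OPG mice was analysed for 2 libraries of 1 group, made per the labels with a 5′ kit from a pool of 10 mice of 12 weeks. The authors aligned the reads to mm10 with Cell Ranger and deposited raw counts of UMIs per gene and barcode as whole numbers, without normalization. The submitters' processing notes name Cell Ranger 7.2.0 and Seurat 5.2.1. Whether intronic reads were counted is not given in the sources used here.

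Cells with 500 to 5000 genes, 500 to 20000 UMIs and at most 5% mitochondrial UMIs were kept. Seurat 5.3.0 in R 4.3.3 was used for log normalization, 2000 variable features without the 10 genes, CCA integration, 30 components and a resolution of 0.8 (seed 1). Clusters were named from markers of 24 classes: at least 3 markers had to be in at least 20% of the cells, at 2 or more times the mean of the clusters. Another 18 genes of pituitary and other cells, and the details of which clusters stay unnamed, were set after the leading genes had been seen. There were 10 unnamed clusters, with 7.20 and 17.8% of the cells.

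UMIs were summed per class and library with Python 3.11.15, numpy 2.4.6, scipy 1.17.1 and pandas 2.3.3. Classes under 20 cells in a library were left out there. A call needs a 4-fold difference in each library, with at least 10 UMIs in the classes compared and a floor of 3 UMIs for a class below it; this step was tested on simulated counts. Shares have exact Clopper-Pearson 95% intervals. To set shares side by side, each cell was reduced at random to 1000 UMIs, which 25040 cells allowed and 612 did not. No doublets were removed. Intervals cover counting error only, and with 1 group no test was made. Gene positions are those of a GRCm38 annotation, matched by gene identifier, and promoter windows are those of RefSeq. The genes, the lists and the rule for the genes named (the 10 genes, up to 4 of each list by fold, the 3 most similar genes, annotation neighbours and markers) were chosen with earlier results of these data known. Beyond the 4 by fold, *Spock1*, *Spock3* and *Adamts4*, called lower, were named too. So were *Nrcam* and *Timp3*, which are not of the kind their lists name. The alternatives tried are another resolution, the genes kept among the variable features, looser filters, each library clustered or read alone, thinned counts and a 2-fold limit.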

Additional observations from a re-analysis of the deposited data

How the results depend on the processing

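No paired analysis was possible because both libraries belong to 1 group and the labels give no comparison between groups. The count of genes called over 4-fold higher in tumor-like than in oligodendrocyte-like cells was 6 with both libraries under every alternative run, 6 with C-ON alone and 8 with FMC_new alone. The count called lower was 1 throughout. The number of genes highest in the tumor-like class was 6, with 5 at a resolution of 0.4 or with looser filters, 7 without the smaller tumor-like cluster, and 7 or 6 with FMC_new or C-ON alone. No share of all genes is given beside this number. The summed level of the 10 genes in tumor-like cells was 5075 CPM, between 4502 and 5113 CPM under the other settings, 4574 and 5577 CPM in a library alone, and 5836 CPM without the smaller tumor-like cluster, an alternative added after the data were seen. The share of tumor-like cells with at least 1 of the genes was 93.5% at 1000 UMIs and 83.1% at 500 UMIs, where each cell holds fewer transcripts. Leaving out the cells above the 90th percentile of UMIs of their class, also added later, gave 5508 CPM with 6 genes called higher and 1 lower. SCTransform, also meant as an alternative, is not given because repeated runs with the same seed did not yield the same clusters. Scrublet marked 1 of 8834 and 0 of 16818 cells, which gives no information on doublets. Depth limits *Acan*, *Tnc* and *Hapln1*, whose levels rest on few UMIs in each class.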
